A study of Mus musculus with 12 samples.

Results

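Hrk and Cdkn1a, a gene that promotes neuronal death and a gene that holds the cell cycle, were followed in sorted mouse motor neurons that carry a Pbx mutation. They are 2 of 205 different genes in the deposited tables and were chosen by name, as the listed genes of the BCL2 family and of the cyclin-dependent kinase inhibitors. Both stand in the table of 62 genes for brachial mutants and in the table of 130 genes for thoracic mutants, and neither is among the 64 genes listed between the control levels. Every table holds only genes that the authors had already selected on these libraries. The tests below therefore describe how the differences compare with the spread between libraries, and they are not independent evidence that the genes change.

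Pbx genes encode homeodomain cofactors of Hox proteins, which give spinal motor neurons their identity along the body axis. Hrk (harakiri, also called DP5; ENSMUSG00000046607) encodes a BH3-only protein, which binds the survival proteins BCL2 and BCL-XL and so favours the mitochondrial route of apoptosis. It is known from neurons deprived of trophic factor, where JNK signalling and Jun raise its transcription. Cdkn1a (ENSMUSG00000023067) encodes an inhibitor of cyclin-dependent kinases, is a classic target of the transcription factor p53, and is found in many cell types that leave the cell cycle. Motor neurons are postmitotic when they start to express Hb9, and many of them die during normal development in competition for trophic support.

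Brachial and thoracic motor neurons of embryos with the genotype PbxMNdelta were set against brachial and thoracic motor neurons of control littermates. All embryos were E12.5, of a highly mixed C57BL/6 background, and carried the Hb9::GFP reporter by which the cells were sorted. Brachial cord supplies the forelimb, and thoracic cord supplies the body wall and the sympathetic ganglia. There were 3 libraries per group, lettered A to C. The series text speaks of 9 pooled embryos of each genotype without saying how they were divided over the libraries, and the sources used here give neither the mutated Pbx alleles nor the driver of the deletion. Nothing states that libraries came from separate embryos, so p-values measure only the spread between these libraries.

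Values are normalized counts, that is reads divided by 1 factor per library. If the smallest step of a library is 1 read, the listed genes held 39381 to 52090 reads per library in the brachial mutant table and 50690 to 81370 in the thoracic one. Pbx3 averaged 1767 ± 241 in brachial mutants, against 2764 ± 333 in brachial controls. At the thoracic level its means were 2249 ± 264 in mutants and 3373 ± 300 in controls (SD, n = 3 each). This does not check the labels, because neither the mutated gene nor the deleted part is given. Of 14 motor neuron markers, 4 were listed at the brachial level (Chat, Slc5a7, Prph and Ebf2) and 1 at the thoracic level (Ebf2), and all had reads in every library of their table. All 4 brachial markers were lower in mutants by limma, with a median log2 difference of -0.79, beside a median of -0.62 over all 62 listed genes, of which 82.3% passed as lower. With libraries centred on the median listed gene, Slc5a7 turned to 0.0955, Prph (-0.0066) and Ebf2 (-0.20) no longer passed, and Chat (-0.86) still did. The Slc5a7 call was also lost without brachial mutant A, brachial mutant B, brachial control B or brachial control C, with differences from -0.53 to -0.47. Chat, the acetylcholine synthesis enzyme, averaged 58.2 ± 17.3 in brachial mutants and 167.5 ± 34.6 in brachial controls (SD, n = 3 each). The part of these motor neuron genes in the results below was not tested. The defining markers Mnx1, Isl1 and Isl2 were not analysed here.

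The promoter sequences show which short motifs lie just before the starts that RefSeq annotates for the members. Where transcription starts in these cells was not measured. The 250 bases before each start in RefSeq, on the plus strand of GRCm38.p6, are printed 5′ to 3′, and capitals mark every match to the motifs searched on both strands. Those were the Pbx-Hox composite TGATTNAT, the homeodomain core TAATTA, the GC box GGGCGG, the TATA box TATAAA, the cyclic AMP element TGACGTCA, the AP-1 site TGANTCA and the p53 half-site. The build differs from the one in the submitters' notes, so these coordinates are used for no measured value.
Hrk, chr5:118169514-118169763: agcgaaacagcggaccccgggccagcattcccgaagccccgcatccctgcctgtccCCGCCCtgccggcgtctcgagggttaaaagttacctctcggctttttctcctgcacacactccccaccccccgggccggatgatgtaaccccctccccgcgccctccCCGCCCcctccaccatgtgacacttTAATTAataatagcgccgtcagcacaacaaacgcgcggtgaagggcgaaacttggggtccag
Cdkn1a, upstream start, chr17:29090729-29090978: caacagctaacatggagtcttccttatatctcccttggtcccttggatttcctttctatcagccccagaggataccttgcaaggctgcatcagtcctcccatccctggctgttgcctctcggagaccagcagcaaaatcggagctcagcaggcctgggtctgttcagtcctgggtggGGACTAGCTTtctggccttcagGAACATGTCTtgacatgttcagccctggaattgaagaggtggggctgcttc
Cdkn1a, downstream start, chr17:29093519-29093768: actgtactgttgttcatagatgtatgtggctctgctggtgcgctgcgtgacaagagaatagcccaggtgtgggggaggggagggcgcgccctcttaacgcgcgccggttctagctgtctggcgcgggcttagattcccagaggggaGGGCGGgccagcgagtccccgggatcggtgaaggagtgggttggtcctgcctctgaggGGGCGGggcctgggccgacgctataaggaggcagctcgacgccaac

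In the Hrk window, capitals mark 2 GC boxes, read on the minus strand, and 1 homeodomain core that begins 62 bases before the start. A GC box is in 32.7% and a homeodomain core in 4.84% of all 32851 promoter windows of this length in RefSeq. The upstream Cdkn1a window holds 2 p53 half-sites, a motif present in 7.13% of all windows, and the downstream Cdkn1a window, whose start lies 2790 bases further along, holds 2 GC boxes. No Pbx-Hox composite, which is in 2.82% of all windows, was found in these letters, and neither were TATAAA (12.4%), TGACGTCA (1.55%) or TGANTCA (6.75%). None of these matches overlap, and a match is a description of letters, not a site of binding. The counts per gene do not separate the 2 starts of Cdkn1a.

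Hrk fell in mutants at both levels. In brachial mutants Hrk read 75.5, 72.6 and 106.2 normalized counts in libraries A, B and C, against 366.7, 373.7 and 259.4 in brachial controls. Every mutant library lay below every control library, and control C was the lowest control. Hrk averaged 84.8 ± 18.6 in brachial mutants and 333.3 ± 64.1 in brachial controls (SD, n = 3 each), 3.93-fold lower in mutants. The log2 difference was -1.97 (SE 0.21, 95% interval -2.45 to -1.50, limma adjusted p = 0.000424). If 1 step is 1 read, these levels rest on 263 reads over the mutant and 972 over the control libraries.

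At the thoracic level Hrk read 205.0, 121.9 and 215.6 normalized counts in mutant libraries A, B and C, against 527.8, 525.8 and 556.1 in controls. The groups again did not overlap. The controls lay within a narrow band, with an SD of 3.16% of their mean, while mutant library B was well under the other two mutants. Hrk averaged 180.9 ± 51.3 in thoracic mutants and 536.6 ± 16.9 in thoracic controls (SD, n = 3 each), 2.97-fold lower in mutants. Its log2 difference was -1.61 (SE 0.23, 95% interval -2.16 to -1.06, limma adjusted p = 0.00131), and it was -1.35 without mutant library B. These levels rest on 557 mutant and 1614 control reads if 1 step is 1 read. Each library pools many cells, so fewer cells with Hrk and less Hrk RNA per cell cannot be told apart, which holds for every gene here.

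Cdkn1a rose in mutants at both levels. In brachial mutants it read 153.0, 202.9 and 215.4 normalized counts in libraries A, B and C, against 93.2, 85.6 and 94.7 in brachial controls. The controls were close together, and the lowest mutant library, A, was still above all of them. Cdkn1a averaged 190.4 ± 33.0 in brachial mutants and 91.2 ± 4.88 in brachial controls (SD, n = 3 each), 2.09-fold higher in mutants. The log2 difference was 1.04 (SE 0.16, 95% interval 0.68 to 1.41, limma adjusted p = 0.00101), from 593 mutant and 266 control reads if 1 step is 1 read.

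In thoracic mutants Cdkn1a read 260.0, 194.4 and 344.4 normalized counts in libraries A, B and C, against 109.5, 83.5 and 156.2 in thoracic controls. Library C was the highest and library B the lowest in both groups, and the lowest mutant library exceeded the highest control library. Cdkn1a averaged 266.3 ± 75.2 in thoracic mutants and 116.4 ± 36.8 in thoracic controls (SD, n = 3 each), 2.29-fold higher in mutants. Its log2 difference was 1.20 (SE 0.29, 95% interval 0.51 to 1.88, limma adjusted p = 0.00830), from 812 mutant and 343 control reads if 1 step is 1 read. The SD was 28.2% of the mean in thoracic mutants and 31.6% in thoracic controls, where it was 17.4% in brachial mutants and 5.35% in brachial controls.

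**Figure D1:**
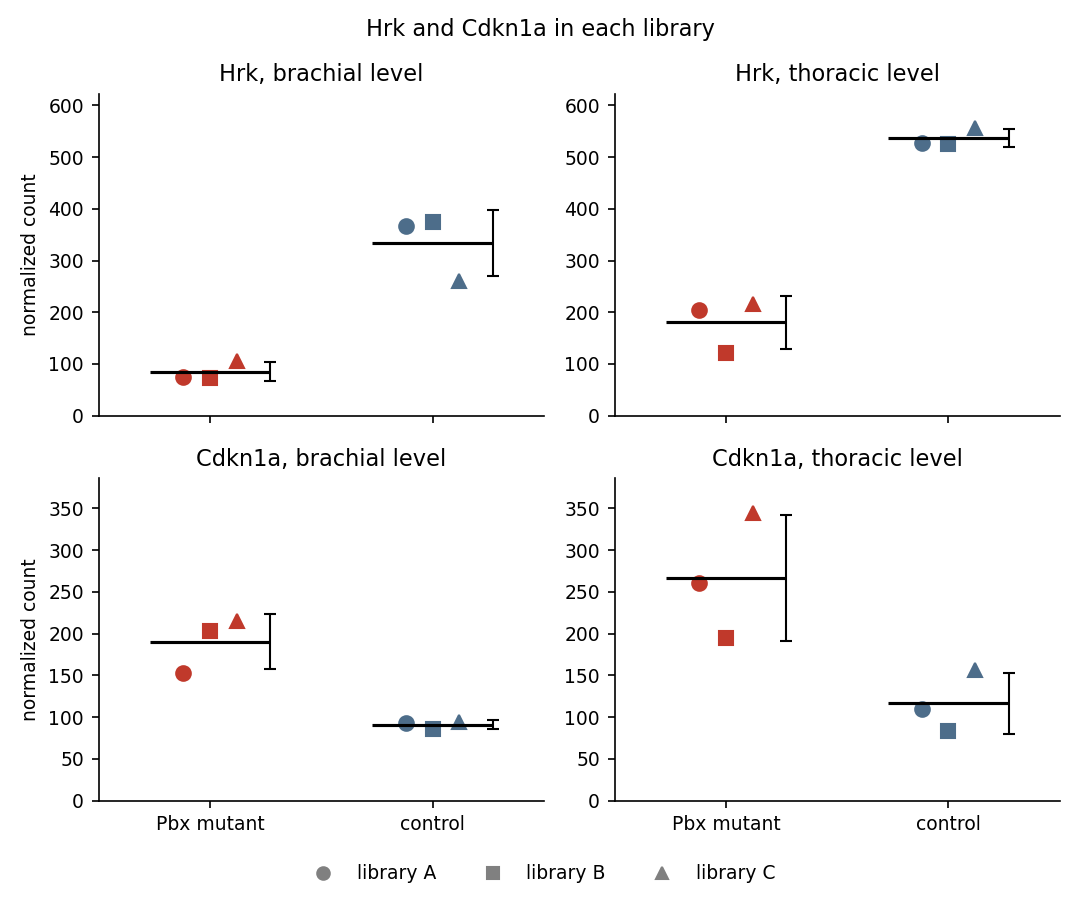
Normalized counts of Hrk (top) and Cdkn1a (bottom) in each library of the brachial (left) and thoracic (right) tables, with Pbx mutants in red and controls in blue. Lines are means and bars are SDs over 3 libraries. Hrk is lower and Cdkn1a higher in every mutant library than in any control library of the same table.

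These calls have to be read against tables in which nearly all genes pass. By limma at an adjusted p under 0.05, 82.3% of brachial genes passed as lower, 16.1% as higher and 98.4% in either direction. Of thoracic genes, 75.4% passed as lower, 19.2% as higher and 94.6% in either direction. Mutant and control libraries lay apart for 96.8% of brachial and 97.7% of thoracic genes, so the lack of overlap in both members is close to the background. The exact two-sided permutation test of 3 against 3 libraries gave p = 0.10 for each member at each level, the smallest value that this design allows.

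Against all genes that the authors tested, the listed ones are few. The authors' adjusted p-values imply 11847 genes tested for brachial and 16235 for thoracic cells. These totals come from 37 of the 62 brachial and 27 of the 130 thoracic genes. Listed genes with an adjusted p under 0.05 in the authors' deposited tables were 0.515% and 0.795% of the totals. Genes that passed but were not listed are not counted, so the share passing before selection may be larger. Hrk had the 2nd smallest p of the brachial table, with an adjusted p of 2.56e-22, and the 4th smallest of the thoracic table, with an adjusted p of 4.23e-19, in the authors' deposited tables. Cdkn1a was 18th in the brachial and 42nd in the thoracic list by that order, with adjusted p-values of 1.75e-05 and 3.51e-05 in the authors' deposited tables. Both members were among the genes so selected, and these values are the selection itself.

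By size, Hrk had the 4th largest of the 52 negative differences in the brachial table, behind Creb5 (-2.39, SE 0.30) and Arhgap36 (-2.10, SE 0.44), which stood just above it, and ahead of H19 (-1.76, SE 0.13) and Chodl (-1.57, SE 0.21). In the thoracic table it was 21st of 103, between Olig3 (-1.66, SE 0.17) and Npr3 (-1.60, SE 0.31). These neighbours differed from Hrk by less than their standard errors at the thoracic level. Cdkn1a had the 3rd largest of 10 positive differences in the brachial table, with Lmo7 (1.03, SE 0.13) and Igfbp2 (0.98, SE 0.16) just below it, and the 10th of 27 in the thoracic table.

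**Figure D2:**
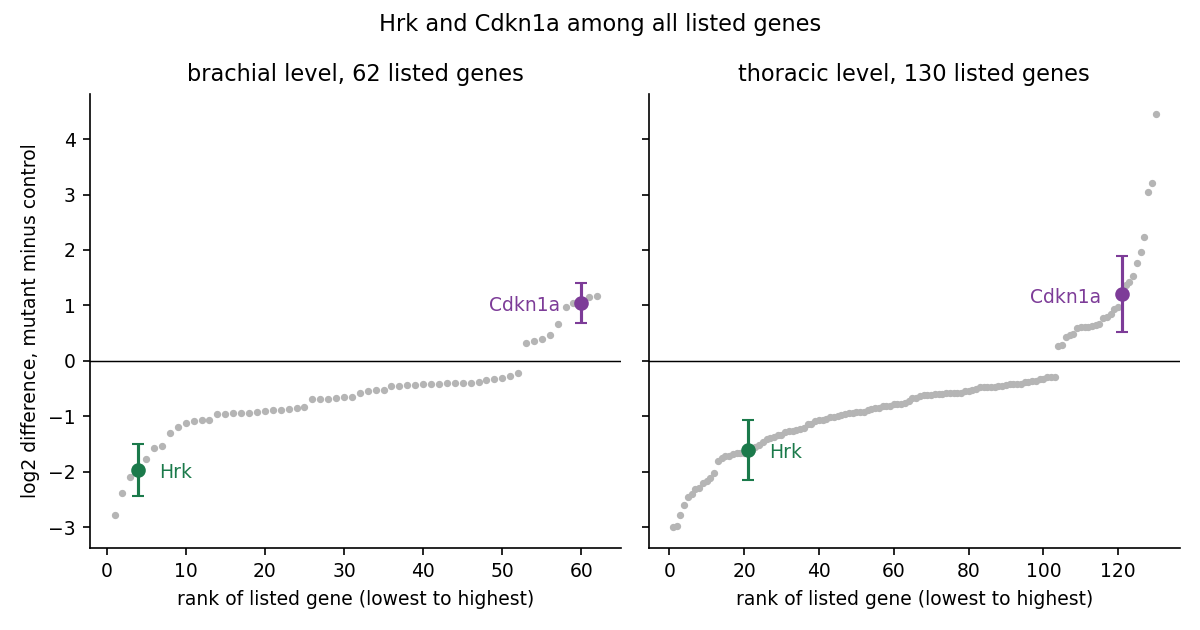
Log2 difference, mutant minus control, of every listed gene, ordered from lowest to highest in the brachial (62 genes) and thoracic (130 genes) tables. Grey points are genes, and coloured points are Hrk and Cdkn1a with 95% limma intervals. Hrk lies in the steep lower end at the brachial level (-1.97) and further inside at the thoracic level (-1.61), while Cdkn1a lies among the few higher genes.

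Neither gene showed a mutant effect that differed between brachial and thoracic cells by the limma interaction. The brachial effect minus the thoracic effect was -0.36 for Hrk (SE 0.33, 95% interval -1.08 to 0.36, limma interaction adjusted p = 0.882). For Cdkn1a it was -0.15 (SE 0.35, 95% interval -0.92 to 0.61, limma interaction adjusted p = 0.986). The limma interaction called 0 of the 30 genes that both mutant tables list, 0%, and 0 of 30 had an unadjusted p under 0.05. These genes were selected as changed at both levels, and genes listed at a single level were left out. The count is therefore no measure of how often effects differ between levels. The intervals leave room for a difference of up to about 1 on the log2 scale, so alike effects are not shown. Leaving out thoracic control B or thoracic mutant C gave Cdkn1a a difference of 0.060 and 0.050, on the other side of 0.

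Among these 30 genes, 26 were lower and 4 higher in mutants at both levels. Hrk had the 4th largest brachial and the 5th largest thoracic difference of the 26. Cdkn1a had the 2nd largest of the 4 at both levels. Higher too were Cpne5, which encodes a copine (1.15, SE 0.18 in brachial and 1.41, SE 0.33 in thoracic mutants), and Fat1, an atypical cadherin (0.35, SE 0.11 in brachial and 0.28, SE 0.14 in thoracic mutants). The thoracic value of Fat1 did not pass limma (adjusted p = 0.0810). Its brachial call was lost without brachial mutant B, brachial mutant C, brachial control B or brachial control C, with differences from 0.33 to 0.36.

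**Figure D3:**
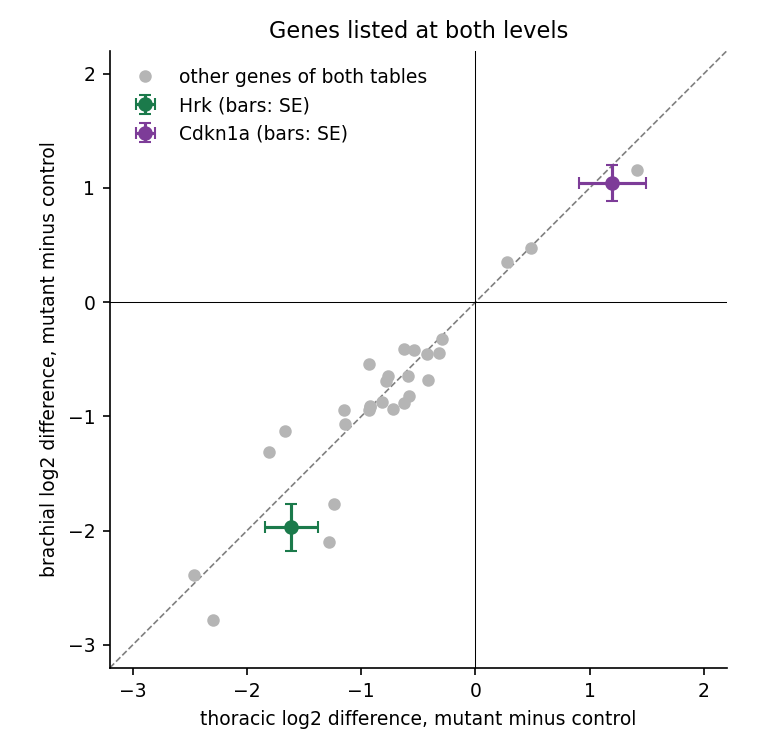
Log2 difference, mutant minus control, at the thoracic (x) and brachial (y) level for the 30 genes of both mutant tables, with SE bars on Hrk and Cdkn1a and a dashed line of equal effect. Hrk, at -1.61 and -1.97, lies below the line by more than its SE bars, and Cdkn1a, at 1.20 and 1.04, has bars that reach it.

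A ratio of both genes within a library does not depend on how that library was scaled. Since it depends on gene length, only its change between groups is read, and it was computed after the values were seen. The log2 ratio of Cdkn1a to Hrk was 1.02, 1.48 and 1.02 in brachial mutant libraries A, B and C, against -1.98, -2.13 and -1.45 in brachial controls. In thoracic mutants it was 0.34, 0.67 and 0.68, against -2.27, -2.65 and -1.83 in thoracic controls. Mutant and control libraries lay apart at each level, which restates that the members moved in opposite directions. The mean ratio was higher in mutants by 3.03 on the log2 scale at the brachial level, an 8.14-fold change, and by 2.82 at the thoracic level, a 7.04-fold change.

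**Figure D4:**
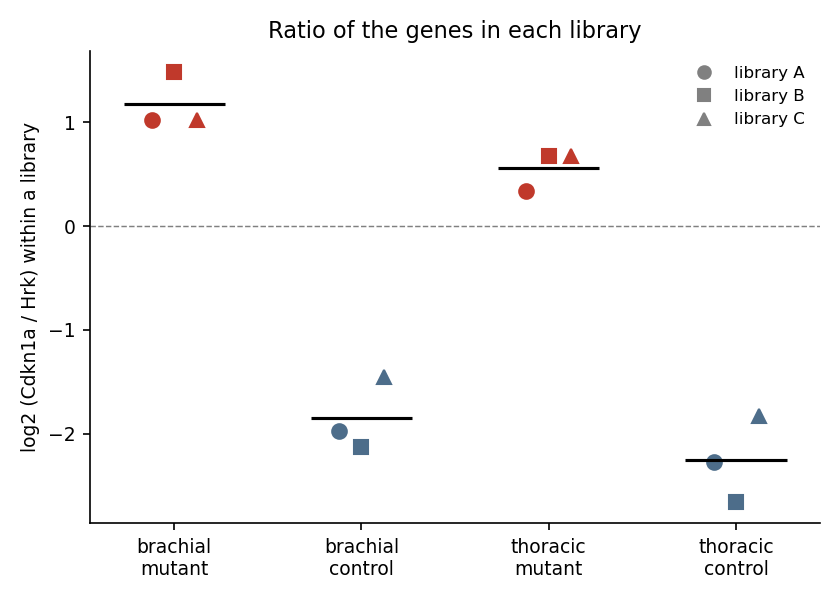
Log2 ratio of the Cdkn1a to the Hrk normalized count within each of the 12 libraries, by group, with mutants in red, controls in blue and lines at group means. Mutant libraries lie between 0.34 and 1.48 and control libraries between -2.65 and -1.45.

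Scaling matters for the size of each single difference. With each library centred on the median log2 value of the listed genes, the Hrk difference was -1.29 in brachial and -0.90 in thoracic cells, and that of Cdkn1a was 1.73 in brachial and 1.91 in thoracic cells. All 4 still passed limma, with adjusted p-values of 0.00123, 0.00528, 9.93e-05 and 0.000568 in that order. The median difference over all listed genes was then 0.07 in place of -0.62 in the brachial and 0.04 in place of -0.67 in the thoracic table. It left 13 higher and 7 lower genes in place of 10 and 51 in brachial mutants, and 27 and 25 in place of 25 and 98 in thoracic mutants. In the authors' deposited table, the brachial log2 fold changes were -1.06 for Hrk and 0.56 for Cdkn1a, 0.537 and 0.535 times the values recomputed here, while the thoracic ones were -1.56 and 1.20. The deposited brachial values were smaller for the table as a whole, with a median of -0.38 against -0.62 recomputed. The thoracic medians were -0.66 deposited and -0.67 recomputed.

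The level of each gene could be set side by side across the 4 groups, because control libraries stand in the control table too and differ between tables by 1 constant factor each. On that scale Hrk averaged 94.1 ± 20.7 in brachial mutants, 157.0 ± 44.5 in thoracic mutants, 370.1 ± 71.7 in brachial controls and 465.8 ± 14.9 in thoracic controls (SD, n = 3 each). Mutant libraries took the mean factor of the controls of their level, so their place on this scale is approximate. Hrk ran from 287.5 to 416.0 in brachial and from 455.8 to 483.0 in thoracic controls, without overlap. The log2 difference was -0.35, with the smallest p of the design (exact two-sided permutation p = 0.10). The share of all genes that lie apart between the control levels was not computed, so no difference between levels is read from this. In mutants Hrk ran from 80.6 to 117.9 at the brachial and from 105.9 to 187.2 at the thoracic level, which overlap (log2 difference -0.71, exact permutation p = 0.20).

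Cdkn1a overlapped between the control levels. It averaged 211.4 ± 36.7 in brachial mutants, 231.1 ± 65.2 in thoracic mutants, 101.2 ± 5.18 in brachial controls and 101.1 ± 32.0 in thoracic controls on the same scale (SD, n = 3 each). Between levels it differed by 0.05 on the log2 scale in controls (exact permutation p = 0.70) and by -0.11 in mutants (exact permutation p = 0.90), brachial minus thoracic, and the libraries overlapped in both. The comparisons of controls are on the scale of the control table, in which both levels were normalized together. The comparisons of mutants set tables that were normalized separately side by side.

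Few genes of any kind were listed with an authors' adjusted p under 0.05, 0.515% of those tested for brachial and 0.795% for thoracic cells. A list with no listed genes is therefore close to the background. Each list with a listed gene had a larger share than these. The lists were chosen with earlier results of these data known, so no enrichment was read from them. The 7 cell death and cell cycle lists used here hold 196 names, of which 7 were listed in a mutant table, Hrk and Cdkn1a included. Hrk was the 1 listed gene of 25 in the BCL2 family at each level, and no gene of 26 in the list of caspases, apoptosome and their inhibitors was listed. Cdkn1a was the 1 listed gene of 11 kinase inhibitors and RB proteins. It was also the 1 listed gene of 40 p53 genes and targets, and none of the other 39 was listed. Of 32 cyclins, kinases and E2F factors and of 30 proliferation genes, 0 were listed. The tables list selected genes only, so values of the unlisted genes were not analysed here.

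The list of death receptors, trophic receptors and the JNK route gave 3 of 44 genes in brachial mutants and 4 of 44 in thoracic mutants. All were lower by limma as the libraries were deposited, which is close to the background of 82.3% of brachial and 75.4% of thoracic genes passing as lower, with Jun, Ngfr and Unc5c turning sign under the centring given above. The median log2 differences were -0.42 and -0.66, beside medians of -0.62 and -0.67 over all genes of the 2 tables. Jun, which can activate Hrk in neurons that lose trophic support, read 1289, 1300 and 1320 normalized counts in thoracic mutants A, B and C, against 1694, 1541 and 2159 in controls, without overlap. Its log2 difference was -0.45 (SE 0.17, limma adjusted p = 0.0332), and 0.26 without a call when libraries were centred. The Jun call was lost without any 1 library other than thoracic control B, with differences from -0.49 to -0.31.

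Ngfr, the p75 neurotrophin receptor, read 900.6, 1060 and 1059 normalized counts in brachial mutants, against 1153, 1423 and 1457 in brachial controls, without overlap. Its log2 difference was -0.41 (SE 0.14, limma adjusted p = 0.0263), turning to 0.27 with centring. Unc5c, a netrin receptor of the dependence type, averaged 695.2 ± 73.0 in brachial mutants, against 935.2 ± 153 in their controls, and 1247 ± 85.3 in thoracic mutants, against 1814 ± 146 in theirs (SD, n = 3 each). Its log2 differences were -0.42 (SE 0.16) and -0.54 (SE 0.14), and 0.26 and 0.17 with centring. The brachial calls of Ngfr and Unc5c were each lost without brachial mutant A, brachial mutant B, brachial control B or brachial control C, with differences from -0.45 to -0.34 for Ngfr and from -0.42 to -0.30 for Unc5c.

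Lifr, a receptor subunit for LIF and related survival cytokines, averaged 511.1 ± 62.4 in brachial mutants and 823.3 ± 106 in brachial controls (SD, n = 3 each), a log2 difference of -0.69 (SE 0.15). In thoracic mutants it averaged 803.4 ± 161, against 1367 ± 142 in thoracic controls, a log2 difference of -0.78 (SE 0.19). Met, the receptor for hepatocyte growth factor, averaged 451.8 ± 84.0 in thoracic mutants and 823.1 ± 113 in thoracic controls, a log2 difference of -0.87 (SE 0.19). With centring these 3 differences were near 0, at -0.0016, -0.07 and -0.16, and did not pass.

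**Figure D5:**
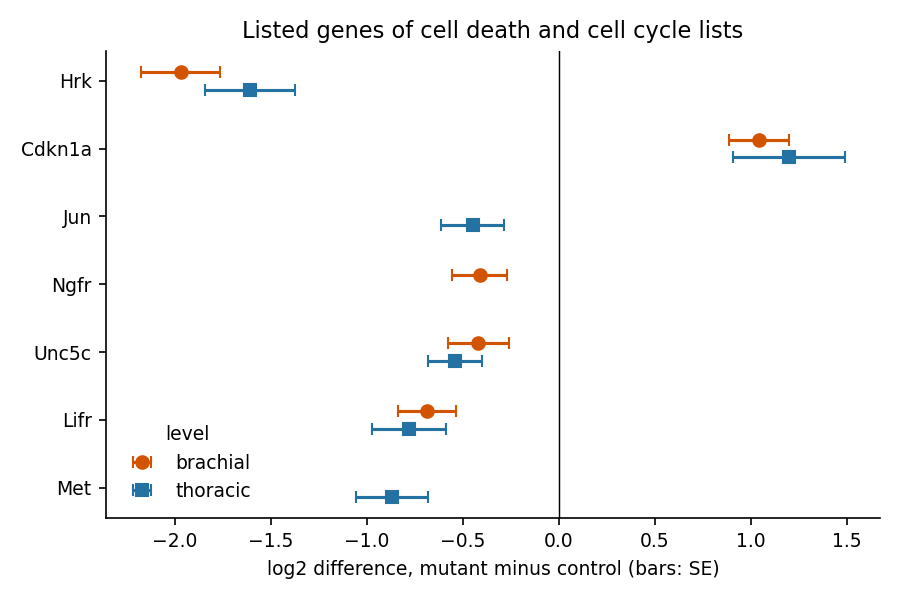
Log2 difference, mutant minus control, with SE bars, of the 7 listed genes of the cell death and cell cycle lists, at the brachial (orange circles) and thoracic (blue squares) level. Cdkn1a (1.04 and 1.20) is on the higher side, Hrk (-1.97 and -1.61) is the lowest, and Jun, Ngfr, Unc5c, Lifr and Met lie between -0.87 and -0.41 as deposited, where centring turns Jun, Ngfr and Unc5c to between 0.17 and 0.27.

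Some markers of other cells were listed in the thoracic table. Of 12 mesenchyme and muscle markers 1 was listed, Postn. It read 8.73, 9.89 and 5.11 in thoracic mutants, against 26.4, 38.1 and 41.6 in thoracic controls. Its log2 difference of -2.12 (SE 0.28) was -1.40 with centring and still passed limma. Of 16 progenitor and glial markers 1 was listed, Nes, which averaged 428.3 ± 16.5 in thoracic mutants and 597.8 ± 99.5 in thoracic controls (SD, n = 3 each), and whose log2 difference of -0.47 was 0.25 with centring. The Nes call was lost without thoracic mutant A, thoracic mutant B or thoracic control B, with differences from -0.48 to -0.34. Outside the marker lists, and chosen after their values were seen, Olig3, Pkd2l1 and Col2a1 were lower in thoracic mutants by limma. Olig3 (-1.66, SE 0.17) is a gene of dorsal progenitors, and Pkd2l1 (-2.60, SE 0.16) one of neurons that contact the cerebrospinal fluid. Col2a1 (-1.08, SE 0.29) encodes a cartilage collagen. Of all thoracic genes 75.4% passed as lower, and centred differences of Olig3, Pkd2l1 and Col2a1 are not given here. No interneuron (of 15), dorsal root ganglion (of 6) or blood and endothelial (of 14) marker was listed in either mutant table, and no marker of these 5 kinds in the brachial one. The part of other cells in the Hrk and Cdkn1a differences was not tested.

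The genes whose log2 values ran most like each member over the 6 libraries of a table are named as a description. The libraries fall into 2 groups, so Pearson's r largely restates the group difference. For Hrk in the brachial table these were Nfia, a nuclear factor I gene (r = 0.99), Ebf2, Megf11 and Chodl (0.97, 0.97 and 0.96) and H19 (0.96). In the thoracic table they were Creb5, Fam135b, Fam101b, Cacna1e and Tgfb2 (0.986 or above). The lowest r with Hrk belonged to Lmo7 (-0.96), Fat1 (-0.92) and Cdkn1a itself (-0.91) in the brachial table, and to Bmp4 (-0.98), Pcdh19 (-0.96) and Stx11 (-0.91) in the thoracic one, where Cdkn1a had -0.71.

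For Cdkn1a, Cpne5 was among the 5 most alike genes in both tables, with r = 0.99 in the brachial and 0.93 in the thoracic one. Others in the brachial table were Fat1, Lmo7 and Dgkk (0.96 to 0.99), and in the thoracic table Prokr2 (0.94), Cdh12, Ramp3 and Ppp1r1c (0.86 to 0.90). The lowest r belonged to Gas1 (-0.99), a growth arrest gene, Chic1 and Megf11 (both -0.97) in the brachial table, and to Cntn2 (-0.94), Trhde (-0.93) and Mfap4 (-0.92) in the thoracic one. No gene other than Cpne5 was common to the most alike genes of a member at both levels. Many of these genes could not recur, because only 1 of the mutant tables lists them. Prokr2, Cdh12, Ramp3 and Ppp1r1c, for example, are not listed in the brachial table. The lack of sharing is therefore not read as a difference between levels.

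The annotation sets a limit on Cdkn1a. A gene of the opposite strand, AC167363.2, overlaps it in GENCODE on GRCm38, no other gene overlaps Hrk there, and the sources used here do not give strand use in the counting.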

How the data were processed

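RNA of sorted motor neurons was sequenced after cDNA amplification, per the labels' protocols. The builds NCBIM37 and mm9 and the tools DESeq2 1.12.3, HTSeq 0.6.1p1, Picard and Bowtie 1.0.0 are named without settings, per the submitters' processing notes. The authors deposited 1 table per comparison with a normalized signal per library (reads divided by 1 factor, scaled separately in each table), log2 fold changes, a test score and p-values, per the file headers. Each nonzero value is a whole multiple of its library's step (relative tolerance 1e-06). Whole-library totals were not analysed here.

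Values were taken as log2(normalized count + 0.5), so that fold changes of low genes are understated, and fitted across all genes of a table with limma 3.58.1 in R 4.3.3 (2 groups, Benjamini-Hochberg adjustment, threshold 0.05), after a check on simulated data. A limma interaction over 12 libraries compared the levels. Permutation tests, motif searches and plots used Python 3.11.15 with matplotlib 3.10.9, scipy 1.17.1, pandas 2.3.3 and numpy 2.4.6. The members, the 7 lists and the 6 marker lists were chosen with earlier results of these data known. Genes named are both members, listed genes of these lists, the nearest genes by size, and, of named genes, the 5 most and 3 least alike by Pearson's r. A few of these genes are not reported here.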

Additional observations from a re-analysis of the deposited data

How the results depend on the processing

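The 4 differences of Hrk and Cdkn1a kept their direction and their call in all 52 alternatives run: pseudocounts of 0.1 and 2, a minimum mean of 10, a replicate block, centring, an intensity trend, each library left out, and the authors' deposited values. With a library left out, Hrk ran from -2.14 to -1.87 (brachial) and from -1.76 to -1.35 (thoracic), and Cdkn1a from 0.95 to 1.19 and from 0.98 to 1.43. The interaction of Cdkn1a then ran from -0.39 to 0.060 and never passed limma. Centring on the median listed gene lowered the count of passing genes to 20 of 62 (brachial) and 52 of 130 (thoracic), from 61 and 123. It uses genes selected for a change that were mostly lower. It turned the sign of Ngfr (0.27), Slc5a7 (0.10) and Unc5c (0.26) in brachial mutants and of Ebf2 (0.0894), Jun (0.26), Nes (0.25) and Unc5c (0.17) in thoracic mutants, none of which then passed. Leaving out a library left 40 to 58 passing brachial genes, 40 without brachial control B. The replicate letter as a block left 60 brachial and 118 thoracic genes passing and changed no call of either member. Deviations of libraries with the same letter had correlations from -0.49 to 0.31, so pairing by letter was not established. The planned count tests were not run, since each table holds too few low values for the recovery of reads to be checked.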
